A study of Mus musculus with 7 samples.

Results

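Endothelial cells are held together by adherens junctions, tight junctions and a layer of adhesion molecules along their lateral border, and 10 genes of that border are described here. They are Pecam1, Cdh5, Esam, Cldn5, Jam2, Jam3, F11r, Icam2, Tjp1 and Ctnnb1, picked by symbol from the 49585 genes in each deposited table. Total RNA was sequenced from MS-1 cells, a mouse endothelial line derived from pancreatic islets, in 4 libraries labelled LPL overexpression and 3 control libraries labelled WT. Lipoprotein lipase (LPL) releases fatty acids from circulating triglyceride. All 7 libraries came from cells in DMEM, the way LPL was introduced is not given in the labels, and no vector-only library was analysed here. Whether the replicates were grown separately is not stated, so a p-value here covers the spread among the libraries alone, and that spread may be technical.

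In adherens junctions, VE-cadherin (Cdh5) binds its like on the neighbouring cell and holds catenins on its cytoplasmic tail, where beta-catenin (Ctnnb1) links it to alpha-catenin and actin. In tight junctions, claudins and the junctional adhesion molecules bind the scaffold ZO-1 (Tjp1) inside the cell. PECAM-1, ICAM-2 and ESAM lie along the same cell contacts, where they take part in adhesion and in the passage of leukocytes through the vessel wall.

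The libraries were deep and close to each other within a group, and they matched their labels for Lpl. Correlations of log2-scaled counts were 0.996 to 0.997 within each group and 0.959 to 0.962 between the groups. Sense reads counted to genes numbered 24328418 to 29210847 per LPL overexpression library and 26514501 to 28104402 per control library. Lpl had 10867 to 12753 counts per LPL overexpression library and 1 to 6 counts per control library, without separating an introduced sequence from the cell's own gene. The LPL overexpression libraries also carried pigment cell genes. All 12 pigment cell markers rose, and their summed level was 1375 to 1440 CPM (counts scaled to library size with TMM factors) in LPL overexpression libraries, against 3.37 to 4.11 CPM in control libraries. Of these markers, 6 had no read in any control library (Tyrp1, Dct, Tyr, Mlana, Oca2 and Sox10). This difference runs along the same groups as every result below, and its part in them was not tested. In bulk RNA, fewer cells of a type and less RNA per cell cannot be told apart.

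Of the 10 junction genes, 8 had enough reads to test, and all 8 differed between groups by small amounts, 4 higher and 4 lower with LPL overexpression. Pecam1, F11r, Cdh5 and Icam2 fell, with changes between -24.0% and -7.05%, and Esam, Tjp1, Jam3 and Ctnnb1 rose by between 5.30% and 10.7%. The remaining genes, Cldn5 and Jam2, were close to silent in both groups. Tests were edgeR's quasi-likelihood F test with Benjamini-Hochberg adjustment over all 13639 genes tested and a threshold of 0.05. By that rule 43.2% of all genes tested changed, 21.9% higher and 21.3% lower. Of all calls 50.7% were higher, a share of 61.3% with limma on log2(TPM + 0.5) values and 59.2% with upper-quartile factors, and no scaling tried turned the direction of any of the 8. Every one of the 8 junction genes had a mean above 50 CPM, and of the 4642 genes tested at that level 52.8% changed, 17.3% higher and 35.5% lower. The median absolute log2 fold change was 0.14 over the 8 junction genes, 0.08 over the genes of at least 50 CPM and 0.12 over all genes tested. For each of the 8 the LPL overexpression and control libraries did not overlap in CPM, which was also so for 44.6% of all genes tested and 54.5% of those of at least 50 CPM.

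**Figure D1:**
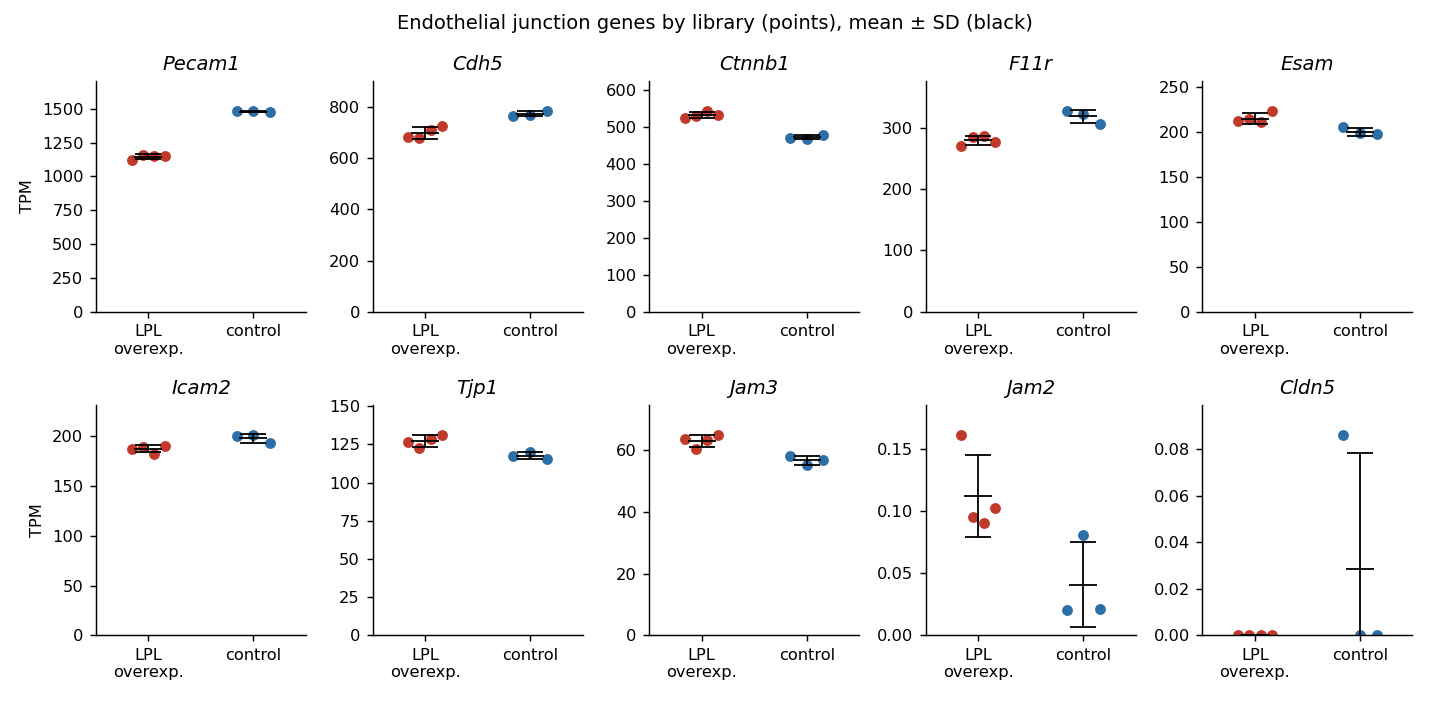
Level of each junction gene (y axis, TPM from 0, one panel a gene) in the 4 LPL overexpression libraries (red, left) and the 3 control libraries (blue, right), with mean ± SD in black. Pecam1 averaged 1145 TPM with LPL overexpression and 1479 TPM in controls, the other tested genes differ less, and Jam2 and Cldn5 stay below 0.2 TPM in every library.

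Cdh5 is the defining cadherin of endothelium. It lies on the plus strand of chromosome 8 (104101625 to 104144511, mm10). Cdh5 stood at 682, 679, 709.8 and 725 TPM (a level corrected for exonic length and library total) in the LPL overexpression libraries and at 766, 771 and 785 TPM in the control libraries. All 4 libraries with LPL overexpression were below all 3 controls. The log2 fold change was -0.17 (SE 0.03, adjusted p = 7.18e-08 in edgeR), a fall of 11.4%.

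Ctnnb1, whose protein sits on the tail of VE-cadherin and also carries Wnt signals to the nucleus, moved the other way. The gene is on the plus strand of chromosome 9 (120929216 to 120960507, mm10). Ctnnb1 stood at 526, 531, 544 and 534 TPM with LPL overexpression and at 471, 469 and 479.9 TPM in controls. The groups were apart, with LPL overexpression higher in all 4 libraries, and the log2 fold change was 0.15 (SE 0.02, adjusted p = 1.28e-06 in edgeR). The opposite strand carries Ulk4 at the last part of Ctnnb1 and 4930593C16Rik at its first part. Reads counted without regard to orientation came to 76.5% of the oriented reads, a loss whose tie to these overlaps was not tested. The change was 0.16 on the log2 scale in that count.

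The balance between Cdh5 and Ctnnb1 transcripts differed between the groups, as the ratio within each library shows. Ctnnb1 over Cdh5 was 0.771, 0.781, 0.767 and 0.736 on the TPM scale in the LPL overexpression libraries and 0.615, 0.608 and 0.611 in the control libraries. The log2 ratio differed by 0.32 (exact two-sided permutation test over 35 arrangements of the group labels, p = 0.0286, the smallest possible, and 0.0286 after Benjamini-Hochberg adjustment over the 4 ratios computed). These ratios are made of genes whose directions were already known, so they give sizes and no independent support.

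Other genes of the adherens junction were split between rises, falls and no call. Of 24 tested, 5 rose, 6 fell and 13 did not pass, and the median was -0.02 on the log2 scale. Beside this and the later list counts stand the shares over all genes tested, 21.9% higher and 21.3% lower. Over genes of at least 50 CPM these shares were 17.3% and 35.5%. The largest falls by the rule for named genes were Ptprk, Ptprb and Afdn. Ptprk, which encodes a receptor-type phosphatase, fell to 60.1 ± 1.46 CPM with LPL overexpression, against 81.6 ± 2.52 CPM in controls (SD, n = 4 and 3, as for all CPM values below). Ptprb, the gene of VE-PTP, which binds VE-cadherin in endothelium, fell to 156 ± 7.69 CPM with LPL overexpression, against 201 ± 2.47 CPM in controls. Afdn, the gene of the nectin-binding scaffold afadin, had 309 ± 6.17 CPM with LPL overexpression and 363 ± 3.44 CPM in controls, a log2 fold change of -0.24 (SE 0.02). The largest rise was Plekha7, which encodes a protein of the zonula adherens, at 4.64 ± 0.344 CPM with LPL overexpression and 1.83 ± 0.0181 CPM in controls. Nexn and Ctnnal1, which encode actin- and catenin-related proteins, rose by 0.31 (SE 0.07) and 0.26 (SE 0.06) on the log2 scale. The most abundant genes of the list per length were Ctnna1, the alpha-catenin gene, and Vcl, the gene of vinculin, which strengthens the link to actin. Ctnna1 did not pass, at 658 ± 7.57 CPM with LPL overexpression and 669 ± 8.55 CPM in controls (log2 fold change -0.02, SE 0.02, adjusted p = 0.478 in edgeR). The catenin genes Ctnnd1 and Jup were named outside the rule. Ctnnd1 was lower at -0.16 (SE 0.04) on the log2 scale, beside -0.17 for Cdh5. Jup did not pass (-0.07, SE 0.04, adjusted p = 0.203 in edgeR). Vcl was lower at -0.08 (SE 0.02) on the log2 scale, a call that ended on log2(TPM + 0.5) values in limma (adjusted p = 0.0556).

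Genes of beta-catenin turnover and signalling also went both ways. Of 19 tested, 4 rose, 7 fell and 8 did not pass, and the median was -0.06 on the log2 scale. Bcl9, a coactivator of beta-catenin, rose to 18.7 ± 0.222 CPM with LPL overexpression, against 14.0 ± 0.972 CPM in controls. Csnk1a1, the gene of a kinase of the destruction complex, was higher at 0.12 (SE 0.03) on the log2 scale. Ccnd1, the cyclin D1 gene and a known target, fell to 2249 ± 60.2 CPM with LPL overexpression, against 2612 ± 45.4 CPM in controls. Apcdd1 and Znrf3, which encode inhibitors of Wnt signalling, were lower at -0.35 (SE 0.08) and -0.20 (SE 0.06) on the log2 scale, and the call of Znrf3 ended on log2(TPM + 0.5) values (adjusted p = 0.0878 in limma). Fbxw11, next to Ccnd1 in level per length, was lower at -0.09 (SE 0.03) on the log2 scale, and its call ended on log2(TPM + 0.5) values (adjusted p = 0.0874 in limma) and without control replicate 2 (adjusted p = 0.0735 in edgeR). Axin2, a common readout of the pathway named after its value was seen, rose at a low level, with 98 reads over the LPL overexpression libraries and 14 over the controls. Pigment cell markers summed to at least 1375 CPM in the same libraries.

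Pecam1 encodes an immunoglobulin-family adhesion molecule of endothelium, platelets and leukocytes, and it was both the most abundant of the 10 genes per length and the one that fell most. It lies on the minus strand of chromosome 11 (106654217 to 106750628, mm10). Pecam1 stood at 1119, 1158, 1154 and 1149 TPM in the LPL overexpression libraries and at 1483, 1482 and 1473 TPM in the control libraries. The groups lay far apart relative to their spread. The log2 fold change was -0.40 (SE 0.02, adjusted p = 9.25e-20 in edgeR), and 84.3% of genes tested changed by less. The genes whose CPM profile over the 7 libraries was nearest to Pecam1, among 4641 genes of at least 50 CPM, were Fez1, Antxr2 and Apbb2, with root mean square differences of 0.0160, 0.0172 and 0.0203 on the log2 scale. Their log2 fold changes were -0.41, -0.42 and -0.38. Nearness in profile here is mainly a like difference between the groups, and a link to Pecam1 was not tested.

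Icam2 lies near Pecam1, on the minus strand of chromosome 11 (106377656 to 106388075, mm10), and encodes a ligand of leukocyte integrins that endothelium carries without stimulation. Icam2 stood at 188, 189.5, 182 and 190.4 TPM with LPL overexpression and at 199.9, 201 and 193 TPM in controls. Its log2 fold change was -0.11 (SE 0.03, adjusted p = 0.00213 in edgeR), so its fall was smaller than that of Pecam1. Icam2 over Pecam1 was 0.168, 0.164, 0.158 and 0.166 on the TPM scale in the LPL overexpression libraries and 0.135, 0.136 and 0.131 in the control libraries, a log2 difference of 0.29 (exact permutation p = 0.0286, adjusted p = 0.0286). Pecam1 also fell more than Cdh5. Pecam1 over Cdh5 was 1.64, 1.71, 1.63 and 1.58 with LPL overexpression and 1.94, 1.92 and 1.88 in controls, a log2 difference of -0.22 (exact permutation p = 0.0286, adjusted p = 0.0286). The genes nearest to Cdh5 in profile were Hoxd8, Prkch and Gna12, at root mean square differences of 0.0102, 0.0109 and 0.0129 on the log2 scale. They too had a like difference between the groups, at log2 fold changes of -0.17, -0.17 and -0.18.

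**Figure D2:**
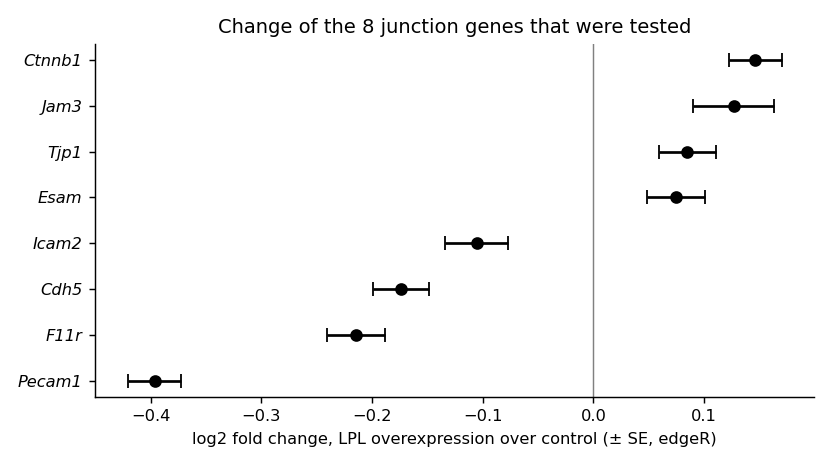
Log2 fold change of LPL overexpression over control (x axis, points with ± SE derived from edgeR's F statistic) for the 8 junction genes tested (y axis). Pecam1 lies farthest from 0 at -0.40, and Ctnnb1 is the highest at 0.15.

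Among other adhesion molecules of leukocyte passage, falls outnumbered rises. Of 20 tested, 10 fell (50%) and 9 did not pass, while 1 rose (5%), and the median was -0.10 on the log2 scale. Falls also outnumbered rises over all genes tested of at least 50 CPM, at 35.5% against 17.3%. Over all genes tested the shares were 21.3% and 21.9%. Podxl, which encodes a sialomucin of the luminal surface, fell to 170 ± 2.23 CPM with LPL overexpression, against 244 ± 3.04 CPM in controls. Pvr, the gene of a nectin-like receptor at cell contacts, fell to 124 ± 2.38 CPM with LPL overexpression, against 176 ± 1.08 CPM in controls. Selp, the P-selectin gene, was lower at -0.45 (SE 0.03) on the log2 scale. Cd34 and Cd81 were the most abundant of the list per length. Cd34, which encodes a sialomucin, stood at 2381 ± 24.5 CPM with LPL overexpression and 2741 ± 32.6 CPM in controls. Cd81, a tetraspanin gene, stood at 307 ± 6.99 CPM with LPL overexpression and 361 ± 5.51 CPM in controls. The rise was Mcam, the gene of the endothelial adhesion molecule CD146, at 82.5 ± 2.66 CPM with LPL overexpression and 75.6 ± 1.06 CPM in controls. Icam1, the cytokine-induced relative of Icam2 and named outside the rule for genes, did not pass, at 25.1 ± 5.01 CPM with LPL overexpression and 19.9 ± 0.663 CPM in controls (log2 fold change 0.34, SE 0.17, adjusted p = 0.186 in edgeR).

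F11r, the gene of junctional adhesion molecule A, fell, while its paralog Jam3 rose. F11r is on the plus strand of chromosome 1 (171437535 to 171464603, mm10). F11r stood at 270.5, 285, 286 and 277 TPM in the LPL overexpression libraries and at 327, 323 and 306 TPM in the control libraries. All 4 LPL overexpression libraries were below all 3 controls, and the log2 fold change was -0.21 (SE 0.03, adjusted p = 1.15e-09 in edgeR).

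Jam3, the gene of junctional adhesion molecule C, is on the minus strand of chromosome 9 (27097384 to 27155421, mm10). Jam3 stood at 63.6, 60.5, 63.5 and 65.0 TPM with LPL overexpression and at 58.0, 55.4 and 56.9 TPM in controls. Its log2 fold change was 0.13 (SE 0.04, adjusted p = 0.00371 in edgeR). A transcript on the opposite strand overlaps Jam3, and reads counted without regard to orientation came to 55.8% of the oriented reads. In that count the change was 0.10 on the log2 scale and no longer passed (adjusted p = 0.0516 in edgeR). F11r over Jam3 was 4.26, 4.71, 4.51 and 4.26 on the TPM scale with LPL overexpression and 5.63, 5.83 and 5.38 in controls, a log2 difference of -0.34 (exact permutation p = 0.0286, adjusted p = 0.0286).

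Jam2, the gene of junctional adhesion molecule B, was close to silent. On the plus strand of chromosome 16 (84774123 to 84825928, mm10), Jam2 had 7, 5, 4 and 5 counts in the LPL overexpression libraries and 1, 4 and 1 in the control libraries. These counts were too low to be tested, and LPL overexpression replicate 1 stood above the other 3 of its group. Pooled over each group, 21 reads against 6 gave a ratio of 2.64 with an exact (Clopper-Pearson) 95% interval from 1.03 to 7.98, which covers counting error only. Over all libraries Jam2 had 25 reads in the opposite orientation against 27 in the counted one. Of all oriented reads 97.0% to 97.1% were in the counted orientation. Whether these few reads come from Jam2 transcript was not tested, so the ratio is no measure of a change in it.

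Esam encodes an adhesion molecule of endothelial cells and platelets that resembles the junctional adhesion molecules. It lies on the plus strand of chromosome 9 (37528078 to 37538319, mm10). Esam stood at 212, 214, 211 and 223 TPM with LPL overexpression and at 205, 198 and 197 TPM in controls. The log2 fold change was 0.07 (SE 0.03, adjusted p = 0.0175 in edgeR). This was the least secure of the 8 calls, and it ended without LPL overexpression replicate 4 (adjusted p = 0.0668 in edgeR) or without control replicate 2 (adjusted p = 0.0760 in edgeR).

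Tjp1, the gene of ZO-1, lies on the minus strand of chromosome 7 (65296165 to 65527781, mm10). Tjp1 stood at 126, 122, 128 and 131 TPM with LPL overexpression and at 117, 120.1 and 115 TPM in controls. The groups were separate but near each other. The log2 fold change was 0.09 (SE 0.03, adjusted p = 0.00522 in edgeR).

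Cldn5, the gene of the main claudin of endothelial tight junctions, was all but absent from both groups. It lies on the plus strand of chromosome 16 (18776847 to 18778260, mm10). Cldn5 had 0 reads in each of the 4 LPL overexpression libraries, and 1 read in control replicate 1 with 0 reads in control replicates 2 and 3. A count of 0 over the 4 LPL overexpression libraries allows a level of up to 0.0280 CPM. No fold is given, and no ratio of Tjp1 to Cldn5 or of Jam2 to Jam3 was formed.

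The promoter table of RefSeq (build GRCm38.p6) holds windows for 4 of the 10 genes, namely Cldn5, F11r, Tjp1 and Ctnnb1, and these are shown because they set the silent gene beside genes that the same cells transcribe. Each sequence is the 250 bases before a start site in that table. For F11r, Tjp1 and Ctnnb1 that site lies inside the gene as the files bound it, and the first of 2 windows is shown for Ctnnb1. Capitals mark the GC box GGGCGG, the box CCAAT, the ETS core CCGGAA and the TATA box TATAAA, searched on both strands.
Cldn5 (chr16:18776597-18776846, plus strand): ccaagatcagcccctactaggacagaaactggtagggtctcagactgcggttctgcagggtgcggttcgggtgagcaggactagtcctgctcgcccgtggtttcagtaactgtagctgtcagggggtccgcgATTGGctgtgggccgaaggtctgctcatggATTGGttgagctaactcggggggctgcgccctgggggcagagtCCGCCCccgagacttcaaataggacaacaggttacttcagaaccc
F11r (chr1:171437311-171437560, plus strand): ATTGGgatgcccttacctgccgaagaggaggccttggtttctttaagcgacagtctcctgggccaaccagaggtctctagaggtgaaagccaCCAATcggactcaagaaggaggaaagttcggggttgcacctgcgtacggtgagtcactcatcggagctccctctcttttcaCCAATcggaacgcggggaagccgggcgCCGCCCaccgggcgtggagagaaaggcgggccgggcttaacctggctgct
Tjp1 (chr7:65371245-65371494, minus strand): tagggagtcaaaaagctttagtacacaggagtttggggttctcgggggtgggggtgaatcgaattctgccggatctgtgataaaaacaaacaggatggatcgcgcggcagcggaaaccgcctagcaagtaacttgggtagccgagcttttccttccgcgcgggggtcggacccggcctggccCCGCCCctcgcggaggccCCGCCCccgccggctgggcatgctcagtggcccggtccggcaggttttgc
Ctnnb1 (chr9:120933150-120933399, plus strand): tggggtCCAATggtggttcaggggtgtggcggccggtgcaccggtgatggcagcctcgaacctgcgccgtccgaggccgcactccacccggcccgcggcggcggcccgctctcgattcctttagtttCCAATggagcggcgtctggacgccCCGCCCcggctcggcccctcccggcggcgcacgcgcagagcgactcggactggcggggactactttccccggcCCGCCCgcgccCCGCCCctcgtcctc

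The window of Cldn5 holds 12 CpG dinucleotides, against 17 in that of F11r, 22 in that of Tjp1 and 35 in that of Ctnnb1, where the median over 32851 windows is 6. Cldn5 has 1 GC box and 2 CCAAT boxes, F11r 1 and 3, Tjp1 2 and 0, and Ctnnb1 3 and 2. A GC box occurs in 32.7% of all windows and a CCAAT box in 33.8%. None of the 4 windows shown holds the ETS core or the TATA box, which occur in 12.0% and 12.4% of all windows. The other window of Ctnnb1 holds 1 TATA box, 2 GC boxes and 43 CpG dinucleotides. These are matches of letters, and no binding was measured.

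Per length, the order of the junction genes was the same in both groups. From the highest down it ran Pecam1, Cdh5, Ctnnb1, F11r, Esam, Icam2, Tjp1, Jam3, Jam2 and Cldn5. With LPL overexpression no neighbours in that order overlapped between libraries. In controls Esam and Icam2 overlapped, at 197 to 205 TPM and 193 to 201 TPM, and so did Jam2 and Cldn5. Pecam1 was 1.64 times as abundant as Cdh5 with LPL overexpression and 1.91 times in controls. Summed over the 10 genes the level was 3250 ± 48.0 TPM with LPL overexpression and 3618 ± 10.7 TPM in controls (SD, n = 4 and 3). Pecam1 held 1145 TPM of the first sum and 1479 TPM of the second, so the lower sum is mostly the fall of Pecam1.

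**Figure D3:**
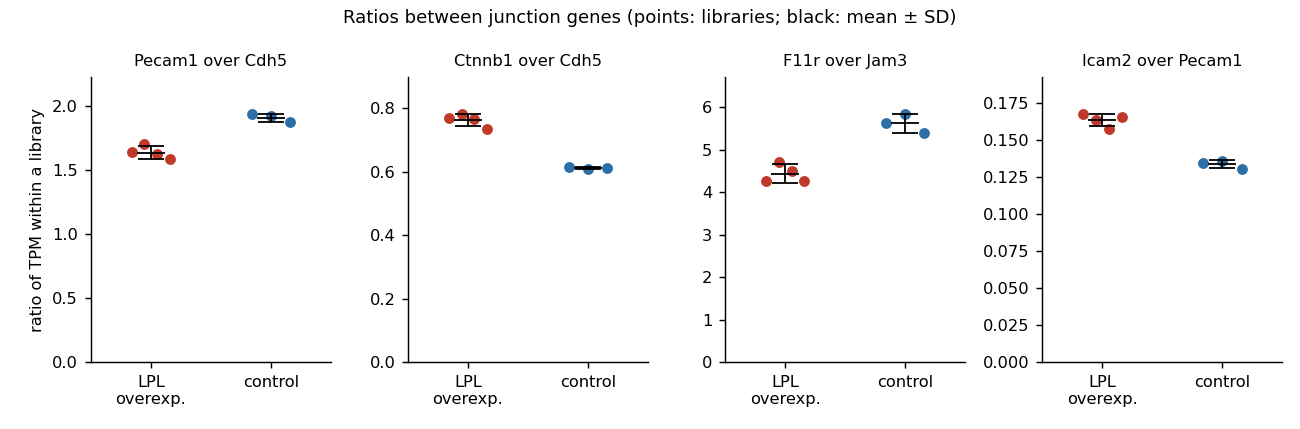
Ratio of TPM values within each library for 4 pairs of junction genes (y axis from 0) in LPL overexpression libraries (red, left) and control libraries (blue, right), with mean ± SD in black. Ctnnb1 over Cdh5 is 0.764 with LPL overexpression and 0.611 in controls, and no pair overlaps between groups.

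Other tight junction genes were about evenly divided. Of 26 tested, 8 rose, 9 fell and 9 did not pass, and the median was -0.04 on the log2 scale. Cgnl1, the gene of paracingulin, and Ybx3, the gene of the ZO-1-associated factor ZONAB, were the most abundant per length. Cgnl1 fell to 1024 ± 25.9 CPM with LPL overexpression, against 1231 ± 17.9 CPM in controls. Ybx3 was lower at -0.08 (SE 0.02) on the log2 scale, a call that ended with upper-quartile factors (adjusted p = 0.0704 in edgeR), on log2(TPM + 0.5) values (adjusted p = 0.0900 in limma) and without control replicate 3 (adjusted p = 0.0505 in edgeR). The scaffold genes Mpdz and Magi1 both stood at -0.28 (SE 0.03 and 0.04) on the log2 scale, and the polarity gene Pard6b at -0.52 (SE 0.09). Magi3, another scaffold gene, rose to 105 ± 4.10 CPM with LPL overexpression, against 82.7 ± 1.48 CPM in controls. Cgn, the cingulin gene, rose at a low level, to 2.59 ± 0.296 CPM with LPL overexpression, against 1.27 ± 0.0792 CPM in controls. Pard3b, a polarity gene, was higher at 0.29 (SE 0.10) on the log2 scale, but adjusted p was 0.0647 in DESeq2, 0.0872 on log2(TPM + 0.5) values in limma and 0.143 in edgeR with control replicate 2 left out. Ocln, the occludin gene, named outside the rule, had 0.768 ± 0.204 CPM with LPL overexpression and 0.395 ± 0.0972 CPM in controls. Claudins other than Cldn5 were few. Of 25 claudin and claudin-like genes found, 4 were tested and 10 had no read in any library. Cldn12, the most abundant per length, rose by 0.14 (SE 0.03) on the log2 scale, with a mean of 141 CPM with LPL overexpression and 128 CPM in controls. Cldn15 fell to 7.48 ± 0.506 CPM with LPL overexpression, against 11.6 ± 0.575 CPM in controls, and the claudin-like Cldnd1 was lower at -0.27 (SE 0.04) on the log2 scale. Cldn6, named after its value was seen, was lower at -0.62 (SE 0.25, adjusted p = 0.0424 in edgeR). Its level was low, at 0.594 ± 0.145 CPM with LPL overexpression and 0.906 ± 0.0946 CPM in controls.

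Cadherins other than Cdh5 and the connexins included genes that were silent in the controls. Of 13 cadherin and protocadherin genes tested, 5 rose, 4 fell and 4 did not pass. Pcdh7 fell to 54.9 ± 1.95 CPM with LPL overexpression, against 80.9 ± 0.256 CPM in controls, and Pcdh1 and Cdh24 were lower at -0.40 (SE 0.07) and -0.54 (SE 0.11) on the log2 scale. Cdh13, the T-cadherin gene, fell to 92.6 ± 0.770 CPM with LPL overexpression, against 107 ± 4.23 CPM in controls. Cdh26 rose to 19.1 ± 1.85 CPM with LPL overexpression, against 13.3 ± 0.763 CPM in controls. Pcdh19 was higher at 0.45 (SE 0.14) on the log2 scale, and its call ended on log2(TPM + 0.5) values (adjusted p = 0.0599 in limma) and without control replicate 3 (adjusted p = 0.0706 in edgeR). Cdh19 had 610 reads over the LPL overexpression libraries and 0 over the controls, at least 153-fold more against a floor of 3 counts over the group. The classical cadherins Cdh2 and Cdh3, named outside the rule, rose too. Cdh2, the N-cadherin gene, had 39.2 ± 2.43 CPM with LPL overexpression and 30.3 ± 0.911 CPM in controls. Cdh3, the P-cadherin gene, had 268 reads over the LPL overexpression libraries and 63 over the controls, a log2 fold change of 1.67 (SE 0.18). Cdh1, the E-cadherin gene, had 12 reads over the LPL overexpression libraries and 0 over the controls. The same libraries carried at least 1375 CPM of pigment cell markers.

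Of 8 connexin and pannexin genes tested, 4 rose, 3 fell and 1 did not pass. Gja1, a connexin gene of many tissues and the most abundant per length, fell to 180 ± 3.73 CPM with LPL overexpression, against 202 ± 3.14 CPM in controls, and Gjc1 was lower at -0.31 (SE 0.05) on the log2 scale. Gjb2 had 856 reads over the LPL overexpression libraries and 0 over the controls, at least 215-fold more. Gjc3 had 862 reads with LPL overexpression and 1 in the controls, a ratio of 649 (exact 95% counting interval 116 to 25662). Panx1 rose to 5.76 ± 0.559 CPM with LPL overexpression, against 1.89 ± 0.484 CPM in controls. Pigment cell markers of at least 1375 CPM went with these rises as well. Of desmosome genes, 2 were tested. Ppl, the periplakin gene, fell to 56.4 ± 1.46 CPM with LPL overexpression, against 81.0 ± 1.69 CPM in controls. Pkp2, a plakophilin gene, rose to 25.1 ± 0.734 CPM with LPL overexpression, against 19.8 ± 1.22 CPM in controls.

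**Figure D4:**
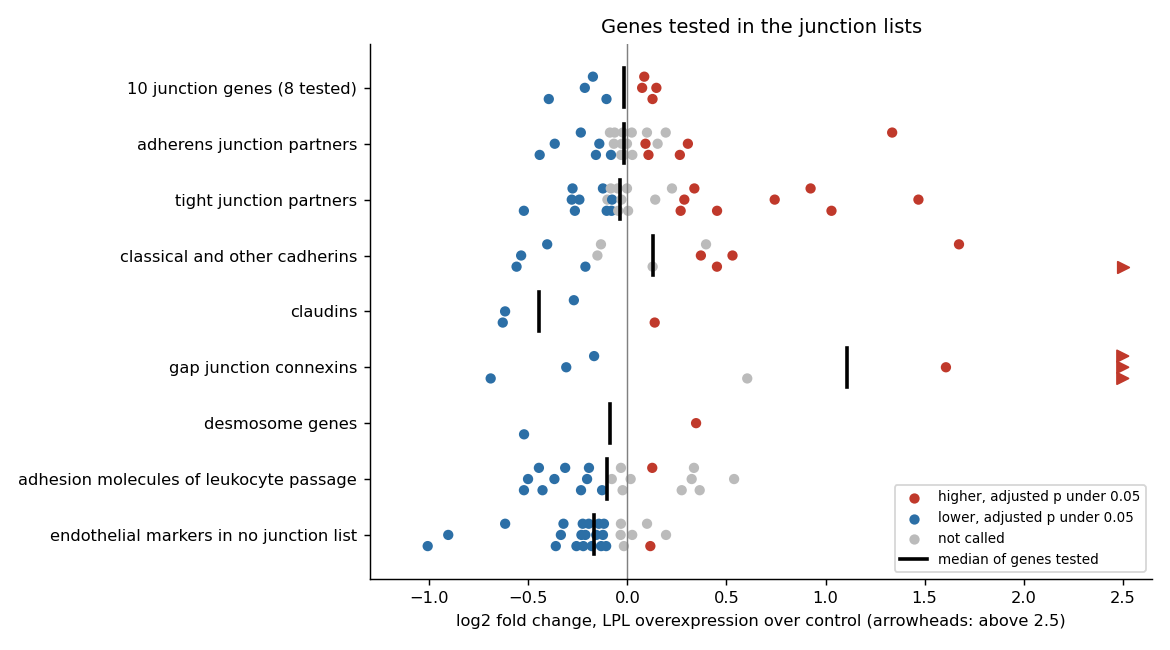
Log2 fold change of LPL overexpression over control (x axis) for every gene tested in the lists shown (y axis), red where higher, blue where lower and grey where not called, with the list's median as a black bar. The 8 tested junction genes lie between -0.40 and 0.15, and arrowheads mark genes above 2.5, whose fitted values rest on 0 or 1 control reads and are no bound.

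Endothelial markers in no junction list mostly fell, while the junction genes were split, 4 lower and 4 higher. Of 26 such markers tested, 19 fell (73.1%) and 6 did not pass, while 1 rose. Of all genes tested 21.3% fell, and of those of at least 50 CPM 35.5% fell. The median was -0.17 on the log2 scale, and the summed level was 8391 to 8522 CPM with LPL overexpression and 9883 to 9942 CPM in controls. Calcrl, a receptor gene of adrenomedullin, fell to 12.1 ± 0.364 CPM with LPL overexpression, against 24.4 ± 1.70 CPM in controls. Thbd, the thrombomodulin gene, was lower at -0.90 (SE 0.02) on the log2 scale and Plvap, of fenestral diaphragms, at -0.62 (SE 0.03). Procr, the gene of the endothelial protein C receptor and the most abundant of the list per length, stood at 2054 ± 71.5 CPM with LPL overexpression and 2569 ± 90.9 CPM in controls. The rise was Egfl7, a secreted endothelial factor gene, at 914 ± 7.88 CPM with LPL overexpression and 843 ± 6.74 CPM in controls. The changes of Cdh5 (-0.17) and F11r (-0.21) lay near the median of these markers, that of Pecam1 (-0.40) below it and that of Icam2 (-0.11) above it. Esam (0.07), Tjp1 (0.09), Jam3 (0.13) and Ctnnb1 (0.15) went the other way, also above that median. Whether these positions differ beyond error was not tested.

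Markers of other cell types were mostly too low to test. Of 11 epithelial markers 2 were tested, 0 rose and 1 fell (Krt18, log2 fold change -0.25, SE 0.04), Krt19 did not pass (0.09, SE 0.08), and Epcam had no read. The summed level was 33.9 to 36.0 CPM with LPL overexpression and 38.6 to 39.8 CPM in controls. Of 13 mural and fibroblast markers 3 were tested, 1 rose and 0 fell. Cspg4 had 84 reads with LPL overexpression and 1 in controls and rose, in libraries that carried at least 1375 CPM of pigment cell markers. Pdgfra and Pdgfrb did not pass (0.14, SE 0.11 and 0.23, SE 0.16). The summed level was 7.45 to 8.37 CPM with LPL overexpression and 5.60 to 6.23 CPM in controls. Of 14 entries for blood cell markers 4 were tested, and of these Cd68 and Pf4 rose and Itga2b fell. The 10 entries not tested had at most 2 reads in any library, and Ptprc had 2 reads with LPL overexpression and 4 in controls. The summed level was 108 to 119 CPM with LPL overexpression and 88.3 to 91.5 CPM in controls. Most of that sum was Cd68, at 98.7 ± 4.27 CPM with LPL overexpression and 74.7 ± 3.03 CPM in controls. For Itga2b the adjusted p was 0.0639 in DESeq2, 0.124 on log2(TPM + 0.5) values in limma, and in edgeR 0.111 with LPL overexpression replicate 4 left out and 0.157 with control replicate 3 left out. Of 16 proliferation genes, all tested, 5 rose and 2 fell, at log2 values of 0.16 for Tyms, 0.13 for Mcm2, 0.11 for Mki67, -0.11 for Aurka and -0.08 for Cdk1. The call of Cdk1 ended with upper-quartile factors (adjusted p = 0.0783 in edgeR), on log2(TPM + 0.5) values (adjusted p = 0.0716 in limma) and in edgeR without control replicate 2 (adjusted p = 0.0556) or control replicate 3 (adjusted p = 0.0670). The most abundant per length, Rrm2 and Pcna, did not pass, at -0.05 (SE 0.03) and 0.06 (SE 0.02). Pcna had an adjusted p of 0.0518 in edgeR and passed in 10 of the 16 alternatives, and Rrm2 passed in edgeR without control replicate 3 (-0.08, adjusted p = 0.0231).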

How the data were processed

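Total RNA of MS-1 cells was sequenced after a stranded library kit, per the labels' protocols, and aligned with STAR to mm10, per the submitters' processing notes. No source used here gives the version of the aligner or of the gene annotation. The authors deposited whole-number read counts for each gene without normalization, per the file headers both for each orientation and for the pair together. Reads in reverse orientation, 97.0% to 97.1% of oriented reads, were used. Levels per length are the TPM values deposited by the authors, which sum to 1000000 per library. Positions are printed 1-based on mm10 as the files give them.

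Genes were tested with edgeR 4.0.16 (R 4.3.3), with TMM factors, filterByExpr, the group as the only term and robust dispersion, and p-values were adjusted by Benjamini-Hochberg. Each SE printed is the absolute log2 fold change divided by the square root of edgeR's F statistic. The fits were tested on simulated data. Alternatives used DESeq2 1.42.0, other scalings and filters, single libraries left out, and limma 3.58.1 on log2(TPM + 0.5) and log2(TPM + 1). Ratios were computed for 4 of 6 planned pairs. The 10 genes and all lists were chosen with earlier results of these data known. Named from each list were up to 3 rises and 3 falls of at least 2 CPM whose groups do not overlap, and the 2 genes of highest TPM. 1 further list is not reported here.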

Additional observations from a re-analysis of the deposited data

Results flagged for a closer look

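Among 82 genes checked, the 10 junction genes included, 6 had an LPL overexpression library far from the other 3, where chance gives about 1 in 20 groups. Of the 10 junction genes it was Jam2, at 0.284 CPM in LPL overexpression replicate 1 (0.159 to 0.180 CPM in the other 3), values that rest on 7 reads in that library and 4 or 5 in each of the others. In LPL overexpression replicate 4, Cgnl1 stood at 986 CPM (1034 to 1043 CPM in the other 3), Selp at 183 CPM (165 to 166 CPM), Ccnd1 at 2158 CPM (2276 to 2282 CPM) and Procr at 1947 CPM (2085 to 2094 CPM). In LPL overexpression replicate 1, Znrf3 stood at 16.7 CPM (14.7 to 14.9 CPM in the other 3).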

How the results depend on the processing

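Over 16 alternative settings, the 8 junction genes tested kept their direction, and under each scaling tried the median of all genes moved by at most 0.0246 on the log2 scale. The call of Esam ended with a replicate block (log2 fold change 0.0629, adjusted p = 0.0666 in edgeR), and with 1 library left out its log2 fold change was between 0.0629 and 0.0864. The call of Jam3 ended when both orientations were counted together (0.10, adjusted p = 0.0516). The block leaves out LPL overexpression replicate 4, which has no partner. Same-numbered libraries had correlations of their deviations from the group means of -0.0189, -0.0391 and 0.0193. Differently numbered libraries had correlations between -0.0455 and 0.0436. No pairing by replicate number was seen, but so few libraries cannot exclude one, and the labels name no batch. With the block 3010 genes were higher and 2727 lower. Depth limits Jam2 and Cldn5, which had 21 and 0 reads over the LPL overexpression libraries and 6 and 1 over the controls.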
